A study of Mus musculus with 165 samples.

Results

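The antigen presentation genes described here are 9 genes of the mouse major histocompatibility complex (MHC) pathways, namely H2-K1, H2-D1, B2m, Tap1, Cd74, H2-Aa, H2-Ab1, H2-Eb1 and Ciita. They were chosen by symbol from the 36255 genes of a table of normalized RNA-seq counts. Of the 9 genes, 6 reached the minimum level for testing (5 normalized counts or more in any library), as did 17414 of all genes. H2-Aa, H2-Ab1 and H2-Eb1 did not reach it and are described by their reads.

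The cells were PUER, a progenitor line of Spi1-/- genotype with a PU.1-estrogen receptor fusion that 4-hydroxytamoxifen (OHT) activates. All libraries come from this 1 line, for which the sources used here name both bone marrow and fetal liver as the origin. Undifferentiated cells in IL3 gave 3 libraries. In GCSF conditions, IL3 was replaced by GCSF for 48 h (GCSF 0h, 3 libraries) and 100 nM OHT was then added, with 78 libraries over 27 time points up to 168 h (GCSF-OHT). The titles of the GCSF 0h libraries name OHT, whereas their treatment labels give the change of cytokine alone, and they are taken here as without OHT. In IL3 conditions, 200 nM OHT was added to undifferentiated cells without a pre-treatment, with 81 libraries over 27 time points (IL3-OHT). The conditions thus differ in cytokine, in OHT dose and in the pre-treatment, and their parts cannot be told apart. Each time point has 3 libraries, except GCSF-OHT at 96, 112 and 152 h with 2, and values of separate libraries are given in the order of their replicate numbers. Each time point was grown in a plate of its own, so that plate and time cannot be told apart, and fresh OHT was given at 40, 88 and 136 h. No vehicle-treated time course was analysed here, and the time in culture cannot be told apart from OHT.

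Libraries held 14600246 to 33147945 reads on genes, and 1 read was worth 0.652 to 1.84 normalized counts. A change was called at an adjusted p under 0.05 (limma, Benjamini-Hochberg over all genes tested) with a log2 fold change beyond 0.58 in either direction, on the scale of log2(normalized count + 1). This scale understates the changes of genes with few reads. Spi1, whose reads can come from the fusion gene as well as from the locus, averaged 9990 normalized counts in undifferentiated cells, 12586 in GCSF 0h, 11121 in GCSF-OHT at 168 h and 5593 in IL3-OHT at 168 h. OHT acts on the PU.1 fusion protein, so the Spi1 level does not check the induction. Summed neutrophil markers ranged from 148101 to 155874 in undifferentiated cells and from 624755 to 667664 in GCSF-OHT at 168 h, while summed macrophage markers ranged from 2651 to 2935 and from 11135 to 11832 in undifferentiated cells and IL3-OHT at 168 h. The sum of neutrophil markers was also higher in IL3-OHT at 168 h (200606 to 235421) and that of macrophage markers in GCSF-OHT at 168 h (5925 to 6123) than in undifferentiated cells. Single markers were mixed in these comparisons. Of 8 neutrophil markers, 4 were called higher and 1 lower in IL3-OHT at 168 h, beside 25.4% of all genes called. Of 6 macrophage markers tested, 2 were called higher and 1 lower in GCSF-OHT at 168 h, beside 39.1% of all genes called. Among the macrophage markers, C1qa and C1qb were at or near 0. Itgam and Cd68 reached 8161 and 5058 normalized counts in a library, and no other macrophage marker more than 490.1. The sums of macrophage markers given here thus mostly follow these 2 genes.

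MHC class I molecules sit on nearly all nucleated cells and show peptides from the cytosol to CD8+ T cells. H2-K1 and H2-D1 encode the heavy chains that hold the peptide, B2m the light chain that every class I molecule needs to reach the surface, and Tap1 a subunit of the transporter that carries peptides cut by the proteasome into the endoplasmic reticulum. MHC class II molecules show peptides from ingested material to CD4+ T cells and are made mainly by dendritic cells, B cells and activated macrophages. H2-Aa and H2-Ab1 encode the chains of the I-A molecule, H2-Eb1 the beta chain of I-E, Cd74 the invariant chain that guards the groove during transport, and Ciita the transactivator without which class II genes are barely transcribed. Neutrophils and macrophages, the fates studied with this line, share class I but differ in their use of class II.

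The class I and class II chain genes lie together on chromosome 17 of the GRCm38 build, with H2-K1 at chr17:33996017-34000347, Tap1 at chr17:34187553-34197225, H2-Ab1 at chr17:34257689-34269419, H2-Aa at chr17:34282744-34287823, H2-Eb1 at chr17:34305867-34316674 and H2-D1 at chr17:35262730-35267499. B2m lies at chr2:122147686-122153083, Ciita at chr16:10480059-10528418 and Cd74 on chromosome 18. H2-K1 and H2-D1 are near-identical in places. Of the 31-base words in H2-K1 transcripts, 22.8% also occur in other genes, with 11.1% in H2-D1. For H2-D1 the share is 26.9%, with 13.8% in H2-K1, but it is spread over 1325 other genes and so is not of class I genes alone. Reads could thus be exchanged between H2-K1 and H2-D1 and with other class I genes. Both genes are also highly polymorphic, and the haplotype of the line is not given in the sources used here, so the match between its alleles and the reference may affect their levels. Tap1 and Psmb9 are transcribed away from each other from neighbouring start sites, and 3.26% of the 31-base words of Tap1 also occur in Psmb9. Whether the counting used the strand is not given in the sources used here.

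Promoter windows of 250 bases before to 50 bases after the start site were given for 6 of the 9 genes (RefSeq, GRCm38.p6). They were searched on both strands for the Y box core (CCAAT), the X box of class II genes, the core of the interferon-stimulated response element (GAAA, 2 bases of any kind, GAAA), the GAS element (TTC, 3 bases of any kind, GAA), a kB site (GGGATTCCC) and an ETS site (GGAAGT). The windows of the 4 class I pathway genes and of H2-Eb1 are shown because the former genes were expressed throughout and the latter was nearly without reads. Capitals mark the matches.

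H2-K1, chr17:34000298-34000597, minus strand: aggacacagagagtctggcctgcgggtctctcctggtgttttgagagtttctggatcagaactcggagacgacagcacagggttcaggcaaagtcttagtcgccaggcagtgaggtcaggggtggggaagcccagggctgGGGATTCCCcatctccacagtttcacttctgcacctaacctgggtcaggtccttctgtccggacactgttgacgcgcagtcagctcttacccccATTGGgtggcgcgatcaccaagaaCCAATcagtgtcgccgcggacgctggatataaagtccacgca
H2-D1, chr17:35262844-35263143, plus strand: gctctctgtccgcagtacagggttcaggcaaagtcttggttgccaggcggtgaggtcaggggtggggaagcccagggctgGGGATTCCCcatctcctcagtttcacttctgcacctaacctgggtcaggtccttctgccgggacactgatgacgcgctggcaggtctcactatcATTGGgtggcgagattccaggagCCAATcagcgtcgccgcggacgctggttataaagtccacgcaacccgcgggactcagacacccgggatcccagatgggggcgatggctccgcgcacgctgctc
B2m, chr2:122147437-122147736, plus strand: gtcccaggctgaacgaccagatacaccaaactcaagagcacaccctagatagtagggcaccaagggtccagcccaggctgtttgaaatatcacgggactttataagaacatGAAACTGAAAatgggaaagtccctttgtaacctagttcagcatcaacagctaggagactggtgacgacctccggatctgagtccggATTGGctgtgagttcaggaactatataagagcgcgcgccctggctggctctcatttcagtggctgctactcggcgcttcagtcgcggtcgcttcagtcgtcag
Tap1, chr17:34187306-34187605, plus strand: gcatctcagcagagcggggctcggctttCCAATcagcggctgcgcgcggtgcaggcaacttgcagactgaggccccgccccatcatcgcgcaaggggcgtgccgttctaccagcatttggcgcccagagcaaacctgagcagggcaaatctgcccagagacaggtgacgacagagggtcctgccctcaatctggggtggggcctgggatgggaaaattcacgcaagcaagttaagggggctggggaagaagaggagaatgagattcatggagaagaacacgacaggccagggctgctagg
H2-Eb1, chr17:34305617-34305916, plus strand: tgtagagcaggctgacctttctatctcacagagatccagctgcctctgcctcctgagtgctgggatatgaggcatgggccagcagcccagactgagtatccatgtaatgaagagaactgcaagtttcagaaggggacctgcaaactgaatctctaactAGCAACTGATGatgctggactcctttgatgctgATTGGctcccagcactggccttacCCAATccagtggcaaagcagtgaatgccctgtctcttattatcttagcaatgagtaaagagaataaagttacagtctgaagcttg

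A Y box core, which is CCAAT or ATTGG when read from the other strand, was present in all 6 genes, the sixth being H2-Aa at -48 to -44 from its start site, and in 37.4% of 32851 promoter windows of all genes. The H2-K1 and H2-D1 windows shared the kB site, starting at -110 and at -170 from their start sites, a match found in 0.353% of all windows. Among the 6 genes, an exact match to the response element core was found in B2m alone, ending at -130, and in 3.44% of all windows. The X box was found in H2-Eb1 alone, at -92 to -82, upstream of a Y box at -59 to -55, and in 0.968% of all windows. No exact match to the GAS element or the ETS site was present in these windows, against 8.30% and 23.8% of all windows. The windows of Tap1 and Psmb9 share 275 bases. Variants of these patterns were not searched, so a window without a match may still hold a variant of the element. A match describes the letters of a window and is no evidence of a bound factor.

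In undifferentiated PUER cells, the class I chains were highly expressed and the class II side was close to absent. Per kb of the longest coding transcript, B2m had 36140 ± 510 normalized counts (SD, n = 3), H2-D1 24780 ± 355 and H2-K1 10110 ± 53.7. Tap1 followed with 424 ± 5.51 per kb, and the order of these 4 genes was separated by far more than the spread between libraries. Ciita had 1.38 ± 0.514 and Cd74 1.15 ± 1.27 per kb, which did not differ beyond their spread, and H2-Aa, H2-Ab1 and H2-Eb1 had no read in the 3 libraries.

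To ask what the cytokine switch does before OHT is added, GCSF 0h was compared with undifferentiated cells. The light chain fell and the peptide transporter rose, whereas the heavy chains did not pass the test. B2m was 30583, 31263 and 31403 normalized counts in undifferentiated cells and 20015, 18421 and 19413 in GCSF 0h. Its groups did not overlap, and it fell by 0.69 on the log2 scale (SE 0.05, adjusted p = 3.6e-22, limma). Tap1 was 1269, 1243 and 1240 in undifferentiated cells and 1878, 2204 and 2175 in GCSF 0h, a rise of 0.73 on the log2 scale (SE 0.07, adjusted p = 2.9e-19). H2-K1 averaged 16364 ± 86.9 (SD, n = 3) and 15107 ± 456, and H2-D1 52091 ± 747 and 50072 ± 899, with log2 differences of -0.12 and -0.06. Cd74 and Ciita had 4 and 21 reads over the undifferentiated libraries and 2 and 29 over those of GCSF 0h. The 2 of 6 genes called compare with 33.7% of all genes called between these groups.

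**Figure D1:**
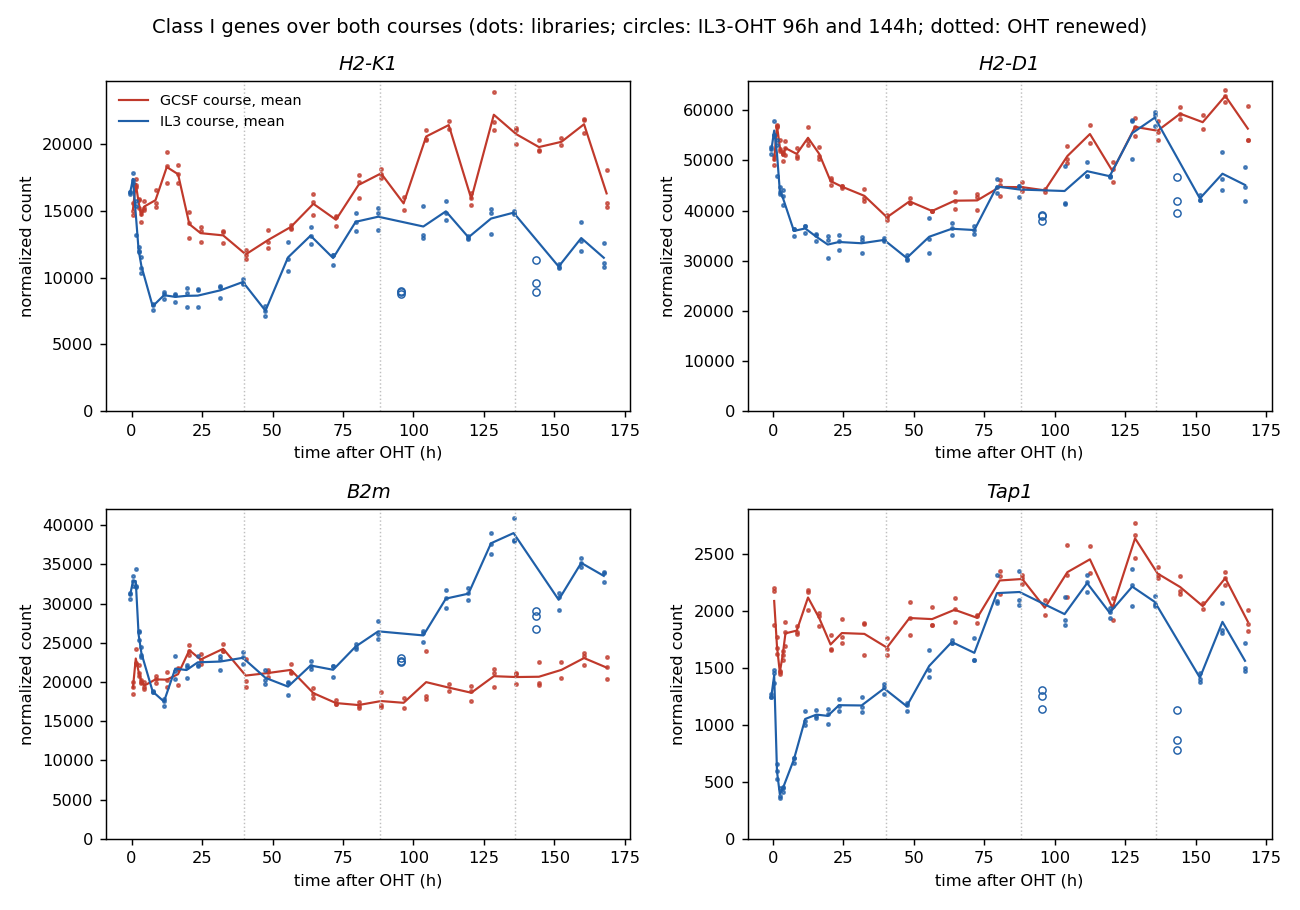
Normalized counts of H2-K1, H2-D1, B2m and Tap1 (vertical axes, from 0) against the time after OHT in h (horizontal axes). Red dots and lines are the libraries and means of GCSF 0h and GCSF-OHT, blue those of undifferentiated cells and IL3-OHT, open circles the IL3-OHT libraries at 96 and 144 h, and dotted lines the times of fresh OHT. In IL3 conditions Tap1 drops to a mean of 391.9 at 3 h and returns, while in GCSF conditions it keeps to 1460 or more.

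In IL3-OHT, the peptide transporter fell within 2 h of OHT and the heavy and light chains followed. Tap1 was 1366, 1457 and 1479 normalized counts at 1 h, then 655, 592 and 524 at 2 h, and 377, 357 and 442 at 3 h. All libraries at 2 and 3 h thus lay under all undifferentiated libraries. At 3 h Tap1 had fallen by 1.68 on the log2 scale from the undifferentiated level (SE 0.07, adjusted p = 1.4e-46). At this time it was the sole member called, of 6 tested, beside 17.9% of all genes. The steps from 1 to 2 h (-1.28) and from 2 to 3 h (-0.59) were called downward, and those from 4 to 8 h (0.67) and from 8 to 12 h (0.59) upward. By 12 h Tap1 was back at 1118, 1000 and 1035, and its difference of -0.25 from the undifferentiated level was not past the fold threshold.

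The structural chains reached their lowest early levels later. H2-K1 averaged 10860 ± 600 at 4 h and was 7600, 7955 and 7999 at 8 h, under all undifferentiated libraries. It had fallen by 1.06 on the log2 scale at 8 h (SE 0.06, adjusted p = 9e-33) and was called lower at every time point from 4 to 48 h. B2m was 18748, 18708 and 18874 at 8 h and 17885, 17620 and 16976 at 12 h, where it had fallen by 0.83 (SE 0.05, adjusted p = 1.6e-27). H2-D1 averaged 35941 ± 808 at 8 h, a log2 difference of -0.54, and was called lower from 16 to 56 h, with its lowest mean of 30543 ± 597 at 48 h (-0.77). Ciita, which held 21 reads in undifferentiated cells, held 5 at 8 h, a ratio of 0.201 (95% interval 0.0591 to 0.547, counting error only), and was called lower at 8, 12 and 16 h. At 8 h, 4 of the 6 members were called and all were lower, beside 29.7% of all genes called in either direction.

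Other genes that supply peptides to class I molecules were followed over the same hours. Psmb9, an interferon-inducible catalytic subunit of the immunoproteasome whose gene faces Tap1, was 402, 455 and 365 normalized counts in undifferentiated cells and 100, 125.6 and 114.9 at 3 h in IL3-OHT. It fell by 1.83 at 3 h and by 2.07 at 4 h on the log2 scale (SE 0.09 for both, adjusted p = 1.6e-36 and 2.8e-41). Psmb8, another immunoproteasome subunit, averaged 797 ± 24.3 in undifferentiated cells and 316 ± 11.3 at 8 h (-1.33), and Tap2, which pairs with Tap1 in the transporter, 2649 ± 44.3 and 1004 ± 31.6 (-1.40). Tapbp, or tapasin, which links class I molecules to the transporter, had fallen by 0.99 at 8 h. Psmb10, the remaining catalytic subunit of the immunoproteasome, did not pass the fold threshold, with 385 ± 13.8 in undifferentiated cells and 541 ± 19 at 8 h (0.49, SE 0.11). Psmb9, Psmb8, Tap1 and Tap2 are neighbours on chromosome 17.

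**Figure D2:**
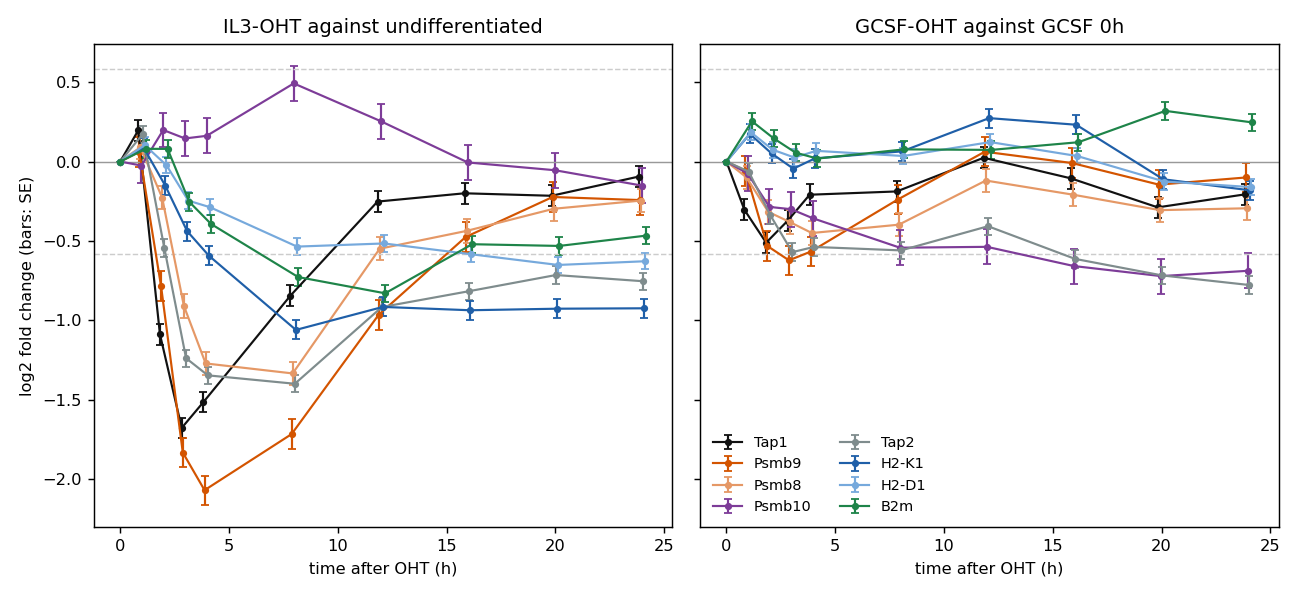
Log2 fold change (vertical axis) of 8 class I pathway genes over the first 24 h after OHT (horizontal axis, h) against undifferentiated cells for IL3-OHT (left) and against GCSF 0h for GCSF-OHT (right). Points are fitted differences, slightly shifted sideways to be told apart, bars are standard errors and dashed lines the fold threshold of 0.58. In IL3 conditions Psmb9 reaches -2.07 and Tap1 -1.68 while Psmb10 stays above its starting level at 8 h (0.49), and in GCSF conditions Psmb9 reaches -0.62 at 3 h.

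In GCSF-OHT the class I members kept closer to their level at 0 h. None of H2-K1, H2-D1, B2m and Tap1 was called by limma at any of the 27 time points against GCSF 0h, although 67 of these tests had an unadjusted and 62 an adjusted p under 0.05, so that the fold threshold kept the latter from being called, while at least 5.48% of all genes were called at each of these time points. Tap1 came nearest in the first hours, with 1461, 1471 and 1446 normalized counts at 2 h, all under the 3 libraries at 0 h, and a difference of -0.51 (SE 0.07). H2-K1 came nearest late, with 21029, 21674 and 23884 at 128 h, a difference of 0.55. Of the other class I genes named above, Psmb9 was called lower at 3 h (-0.62, SE 0.09, adjusted p = 1.7e-08), and Tap2 was just inside the fold threshold at that time (-0.57). The test for any change over the GCSF course uses the same fold threshold against GCSF 0h, so it could not call the class I members. Their F tests alone passed, with adjusted p from 4.2e-41 for H2-K1 to 5.3e-22 for B2m. Psmb9, Tap2 and Psmb10 were called in this test, beside 47.7% of all genes, and Psmb8 and Tapbp were not. The largest change of Tap2 was -0.78 at 24 h and that of Psmb10 -1.07 at 136 h, and Psmb10 was still lower by 0.79 on the log2 scale at 168 h.

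The difference between the conditions was tested as the change from 0 h in GCSF-OHT minus the change from undifferentiated cells in IL3-OHT at the same time. This test at times other than 168 h was chosen after the time courses had been seen, and it carries the differences in dose and pre-treatment with it. At 3 h, Tap1 had changed by 1.31 more on the log2 scale in GCSF than in IL3 conditions (SE 0.09, adjusted p = 2e-24) and was the sole member called, beside 11.1% of all genes. For Psmb9 the difference was 1.21 (SE 0.13, adjusted p = 9e-14) and for Tap2 0.67, while that of Psmb8 (0.53) was not past the fold threshold. At 8 h the changes of H2-K1 (1.12), B2m (0.80) and Tap1 (0.66) differed, 3 of 6 members beside 27.4% of all genes. Over the 25 shared time points, the change in H2-K1 was called higher in GCSF conditions at 15, from 4 h to 168 h, with the largest difference of 1.19 at 12 h (SE 0.08). B2m was called at 8 time points from 8 to 56 h, with 0.90 at 12 h, and H2-D1 at 12 h (0.64) and 16 h. Tap1 was called at 3, 4 and 8 h in this direction and at 80, 88, 112 and 120 h in the other. These differences in change include the starting levels. B2m started at 19283 normalized counts in GCSF 0h and 31083 in undifferentiated cells, and at 12 h averaged 20291 in GCSF-OHT and 17494 in IL3-OHT. In level, no shared time point had B2m called higher or Tap1 called lower in GCSF-OHT than in IL3-OHT.

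At the later times of IL3-OHT the class I members parted. Tap1 was called above the undifferentiated level at 80, 88, 104 to 136 and 160 h, with its highest mean of 2243 ± 75.2 at 112 h from libraries of 2163, 2253 and 2312 (0.84, SE 0.07, adjusted p = 7.4e-23). At 80 h, Tap1, Cd74 and Ciita were called, all higher, beside 29.4% of all genes. After its low at 12 h, B2m reached 38145, 40879 and 37920 at 136 h, above all undifferentiated libraries, but the difference of 0.33 was not past the fold threshold. H2-K1 was called lower again at 152 h, with 10726, 10767 and 10981. At 168 h none of the 4 class I members was called against undifferentiated cells by limma, edgeR or DESeq2, although all 4 had an unadjusted p under 0.05 in limma. H2-K1 was then 12576, 10767 and 11112, under all undifferentiated libraries, with a difference of -0.51 that did not reach the fold threshold, and Tap1 was 1714, 1497 and 1472 (0.32). The 1 member of 6 called at 168 h, Cd74, compares with 25.4% of all genes.

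At 168 h of GCSF-OHT, Tap1 was 1883, 1823 and 2006 normalized counts, above all undifferentiated libraries, a rise of 0.61 (SE 0.07, adjusted p = 7.2e-15). Against GCSF 0h the difference was -0.13. The rise from undifferentiated cells was under the fold threshold with upper-quartile scaling (0.52) and without the libraries numbered 3 (0.56). B2m was 20346, 21921 and 23231, under all undifferentiated libraries, a difference of -0.51 that was past the fold threshold with upper-quartile scaling alone (-0.60). H2-K1 was 15575, 15270 and 18066 and overlapped the undifferentiated libraries (-0.01), and H2-D1 averaged 56352 ± 3909 (0.11). Together with Cd74, 2 of 6 members were called against undifferentiated cells, beside 39.1% of all genes. Against GCSF 0h, Cd74 and Ciita were called, 2 of 6 beside 24.8% of all genes.

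Averaged over the 25 shared time points, the conditions differed in Tap1, Cd74 and Ciita, 3 of 6 members beside 24.5% of all genes. Tap1 was 0.59 higher on the log2 scale in GCSF-OHT (SE 0.013, adjusted p = 1.2e-72), close to the fold threshold, and was under it without the libraries numbered 2 (0.58) and with upper-quartile scaling (0.56). H2-K1 (0.52) and H2-D1 (0.25) were higher and B2m (-0.33) lower in GCSF-OHT, each past the adjusted p but not the fold threshold. By time point, Tap1 was called higher in GCSF-OHT from 2 to 32 h and at 48 h, with the largest difference of 2.04 at 3 h, when it was 1644, 1610 and 1572 in GCSF-OHT. It was the sole member called at 3 h, beside 26.8% of all genes. B2m was called lower in GCSF-OHT at 2, 88, 112 to 136, 160 and 168 h, most at 136 h (-0.92), with libraries of 21094, 20992 and 19791. At 168 h the change from each starting point differed for H2-K1 (0.62, SE 0.08, adjusted p = 3.9e-10), the 1 member called beside 25.7% of all genes, and this difference was 0.52 without the libraries numbered 3.

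**Figure D3:**
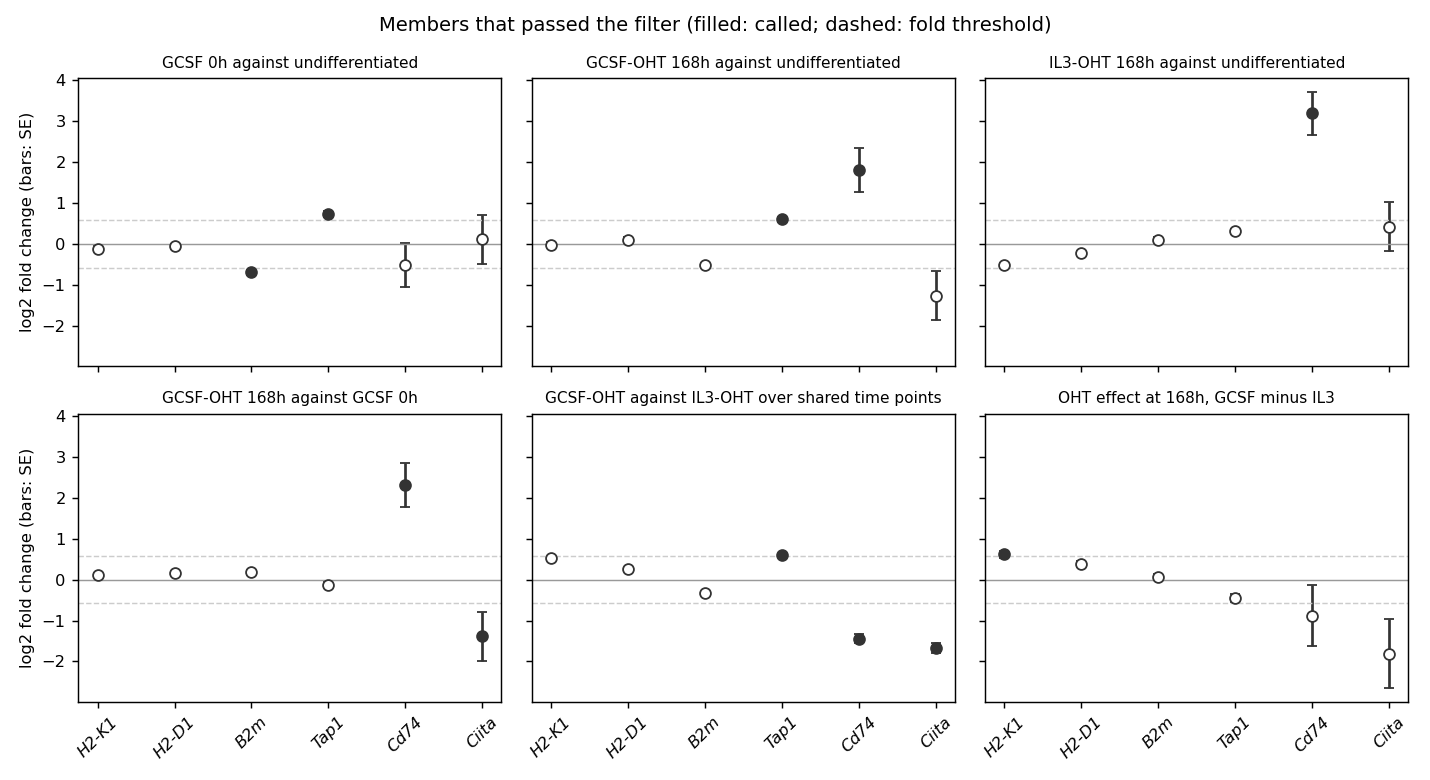
Log2 fold change of the 6 members that reached the minimum level (horizontal axis) in 6 comparisons, named above each panel. Bars are standard errors, smaller than the symbol for the class I genes, filled symbols are called and dashed lines mark the fold threshold of 0.58. Cd74 is called in 4 of the 6 panels, from 3.19 in IL3-OHT at 168 h to -1.44 between the conditions.

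Tested for any change over its whole course, Cd74 and Ciita were called in GCSF conditions (2 of 6, beside 47.7% of all genes) and all 6 members in IL3 conditions (beside 69.7%). In neither condition did class II chain genes become more than traces. H2-Aa had 8 reads in 8 libraries, all of them IL3-OHT. H2-Ab1 had 15 reads in 11 libraries, 5 of them at 2 h of GCSF-OHT. H2-Eb1 had 29 reads in 22 libraries, of which 26 reads fell in IL3-OHT libraries. No library held more than 3 reads of any of these chains. A floor of 3 reads, chosen here, corresponds to 1.96 to 5.51 normalized counts, so the levels of these chains rest on very few reads.

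Cd74, by contrast, rose in both conditions, from very few reads. In undifferentiated cells it was 1.31, 0 and 3.55 normalized counts, or 4 reads in all. In IL3-OHT it was 3.501, 8.57 and 9.72 at 20 h, the earliest time at which it was called, 33.9, 23.6 and 25.0 at 40 h, and 35.4, 30.2 and 26.4 at 80 h, its highest mean. It was called higher at all 18 time points from 20 h on that entered the test. At 80 h its ratio to undifferentiated cells was 20.0 (95% interval 7.48 to 75.2, counting error only) and its log2 difference 3.85 (SE 0.53, adjusted p = 3.6e-10). At 168 h it was 21.4, 20.1 and 16.0, above all undifferentiated libraries, with a difference of 3.19 (SE 0.53, adjusted p = 1.2e-07).

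In GCSF-OHT, Cd74 was called higher as well. It held 2 reads at 0 h, 36 at its highest mean of 10.1 ± 2.72 at 104 h, and 22 at 168 h, when its libraries were 3.94, 6.52 and 11.1. It was called at every time point from 80 h on against GCSF 0h, and at 168 h its difference was 2.32 (SE 0.53, adjusted p = 9.6e-05). Against undifferentiated cells at 168 h the difference was 1.81 (adjusted p = 0.002), and the adjusted p was 0.12 without the libraries numbered 2 and 0.061 when only the groups compared entered the fit. Cd74 was called lower in GCSF-OHT than in IL3-OHT at 15 of 25 time points, most at 40 h (-3.09), and on average by 1.44 on the log2 scale (SE 0.11, adjusted p = 1.3e-24). The change from the starting level differed between conditions at 6 time points between 32 and 80 h, with -2.58 at 40 h (SE 0.75, adjusted p = 0.0028).

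Ciita took another course. In IL3-OHT it followed its low at 8 h with 32.1, 13.6 and 37.2 normalized counts at 80 h and 29.9, 24.8 and 43.4 at 88 h, above all undifferentiated libraries (11.8, 7.16 and 5.91). It was called higher at 72, 80, 88 and 112 h, with a ratio of 4.04 at 88 h (95% interval 2.49 to 6.86, counting error only). At 168 h it was 13.1, 9.15 and 11.3, overlapped the undifferentiated libraries and was not called (0.43). In GCSF-OHT it was 9.24, 7.08 and 10.3 at 0 h, fell to 3 reads at 8 h, a ratio of 0.0951 (95% interval 0.0185 to 0.307), and was called lower at 19 of 27 time points. At 168 h it was 2.95, 3.91 and 1.71, under all libraries of 0 h, with a difference of -1.38 (SE 0.60, adjusted p = 0.046) that lost the call whichever of the 3 replicate numbers was left out. Averaged over shared time points, Ciita was lower in GCSF-OHT by 1.67 on the log2 scale (SE 0.12, adjusted p = 1.7e-25). The largest difference in change, -3.92 at 112 h (SE 0.90, adjusted p = 0.00015), rests on 2 libraries of GCSF-OHT with 2 reads.

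**Figure D4:**
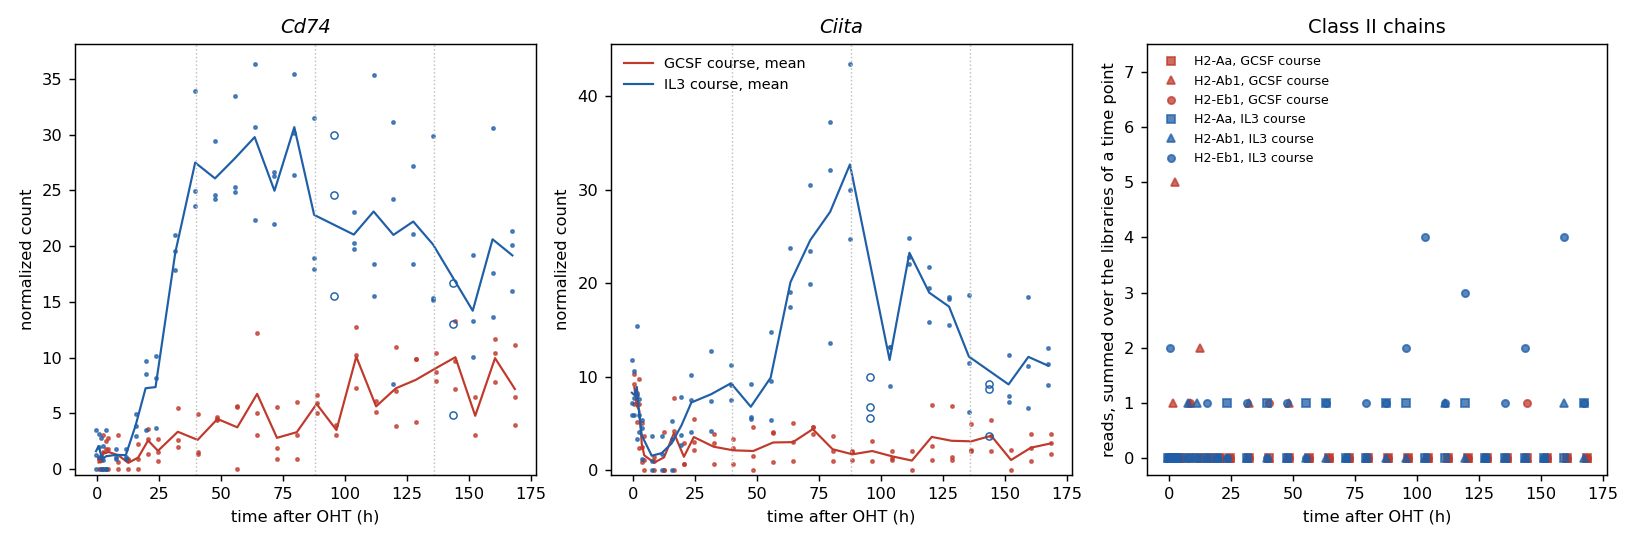
Normalized counts of Cd74 and Ciita (left and middle, vertical axes) and reads of H2-Aa, H2-Ab1 and H2-Eb1 summed over the libraries of a time point (right) against the time after OHT (h). Dots are libraries, lines means, open circles IL3-OHT at 96 and 144 h, dotted lines the times of fresh OHT, and red and blue the GCSF and IL3 courses. Cd74 and Ciita reach means of 30.7 and 32.7 in IL3-OHT, and the 3 chains reach at most 5 reads at a time point.

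Markers of cells that carry class II were measured beside these genes. The 9 dendritic cell markers summed to 122.7 to 143 normalized counts in undifferentiated libraries, 130.9 to 152 in IL3-OHT at 80 h, 159.1 to 224 in IL3-OHT at 168 h and 85.6 to 111.2 in GCSF-OHT at 168 h, with 1 to 3 of the markers at 0 in each of these groups. Of these markers, 4 or 5 held 3 reads or fewer in every library of each group. Itgax reached 270.8 normalized counts in a library, and no other dendritic cell marker more than 55.18. Of the 8 tested, 1 was called higher and 1 lower in IL3-OHT at 168 h, beside 25.4% of all genes. Their median log2 difference there was -0.31, so the sum did not describe most of them. The 7 B cell markers summed to 25.6 to 34.02 in undifferentiated libraries and 5.54 to 10.6 in IL3-OHT at 80 h, where 5 were at 0. The 4 T cell markers summed to 0 to 3.56 in the same groups. The 8 macrophage markers summed to 2651 to 2935 in undifferentiated libraries and 9235 to 9468 in IL3-OHT at 80 h, with 2 of them at 0. Their part in the levels of Cd74 and Ciita was not tested. In bulk RNA, more cells with a transcript and more transcript per cell cannot be told apart.

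The other genes of the class I pathway were described by a list of 22, all of which were tested. In GCSF 0h, 9 rose and 4 fell, with a median log2 difference of 0.07 beside -0.09 for all genes, of which 33.7% were called. Psmb10 (385 to 765), Psmb8 (797 to 1231) and Psmb9 (407 to 619), the immunoproteasome subunits, were among those that rose, as were the class I genes H2-Q10 (1.60) and Tapbpl (1.45), the latter a tapasin relative. H2-Q10 held at most 16 reads in any library and shares 31-base words with the far more abundant H2-K1, so its changes here and below rest on few reads. Mr1, which presents vitamin B metabolites, fell by 1.34 and H2-T24 by 0.89. At 168 h, 7 rose and 6 fell in GCSF-OHT against undifferentiated cells, beside 39.1% of all genes called, with H2-Q10 (2.20) and the proteasome activator Psme1 (1.22) highest and the chaperone Calr (-1.50) and H2-Q7 (-1.20) lowest. In IL3-OHT at 168 h none rose and 5 fell, beside 25.4% of all genes called, among them H2-Q7 (-1.61) and Psmb10 (-1.18). Against GCSF 0h, H2-T23 (1.00) and H2-Q4 (0.71) rose in GCSF-OHT and 3 genes fell, beside 24.8% of all genes called. Tap2, Tapbp and the 3 constitutive counterparts of the immunoproteasome subunits, Psmb5, Psmb6 and Psmb7, were called in none of these comparisons.

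Of 19 further genes of the class II pathway, 12 were tested. In GCSF 0h none rose and 7 fell, the median being -0.75 beside -0.09 for all genes, of which 33.7% were called, with the costimulatory ligand Cd80 (-2.87) and the endosomal protease Ctsl (-2.35) lowest. H2-DMa, a chain of the peptide editor of class II, averaged 77.6 normalized counts in undifferentiated cells and 20.2 in GCSF 0h (-1.90), and its partner H2-DMb1 78.3 and 43.6 (-0.81). At 168 h of IL3-OHT, 4 rose and 2 fell, beside 25.4% of all genes called, with Marchf1 (2.24), a ubiquitin ligase that removes class II from the surface, and Cd80 (1.38) highest, H2-DMb1 at 120 (0.64) and H2-DMa at 31.5 (-1.28). At 168 h of GCSF-OHT, 1 gene rose, Marchf1 (2.80), and 4 fell, beside 39.1% of all genes called, among them Ifi30, a lysosomal thiol reductase, from 495 to 176.9 (-1.48). Ctss, the protease that frees class II of Cd74, averaged 0 to 1.32 normalized counts in these groups and was not tested.

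The 23 regulators of MHC transcription gave 6 higher and 4 lower in GCSF 0h, 13 and 2 in GCSF-OHT at 168 h, and 6 and 1 in IL3-OHT at 168 h, each against undifferentiated cells, beside 33.7%, 39.1% and 25.4% of all genes called. Nlrc5, the transactivator of class I genes, averaged 773, 1112, 1387 and 651 normalized counts in undifferentiated cells, GCSF 0h, and GCSF-OHT and IL3-OHT at 168 h, and was called in GCSF-OHT at 168 h (0.84) alone of these comparisons. Irf1, an interferon-induced factor, averaged 278, 916, 1111 and 514 in the same groups and was called higher in all 3 (1.72, 2.00 and 0.88). Socs1, an inhibitor of cytokine signalling, fell by 3.71 in GCSF 0h and by 3.76 in GCSF-OHT at 168 h. The X box-binding factors Rfx5 (1.07, 0.69 and 0.84) and Rfxap (0.71, 1.18 and 0.95) were higher in the 3 groups, whereas Rfxank was not called (0.20, 0.11 and 0.04). Irf8, a myeloid factor of the monocytic fate, held 14 reads in undifferentiated cells and 83 in IL3-OHT at 168 h, a ratio of 5.12 (95% interval 2.89 to 9.77, counting error only).

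These regulators were also followed into the first hours of IL3-OHT. At 3 h, when Tap1 had fallen by 1.68, Nlrc5 averaged 668 ± 41.9 normalized counts (-0.21) and Irf1 289 ± 23.6 (0.05), and neither was called. Rfx5 differed by -0.55 at this time, inside the fold threshold.

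At 96 and 144 h of IL3-OHT, 8 h after fresh OHT, class I genes stood apart from the time points around them. These libraries were left out of the main fit and compared with their neighbours in a fit of their own. At 96 h Tap1 was 1302, 1250 and 1135 normalized counts, under all libraries at 88 h (2352, 2046 and 2095) and 104 h (2118, 1920 and 1873), a difference of -0.75. H2-K1 was 8929, 8992 and 8777 at 96 h and no less than 12933 at 88 and 104 h, a difference of -0.67. With Ciita (-1.31, adjusted p = 0.028), 3 of 6 members were called, all lower, beside 17.5% of all genes. At 144 h Tap1 was 775, 863 and 1127, under all libraries at 136 and 152 h, a difference of -0.91, and it was the 1 member called beside 15.4% of all genes. The differences of H2-K1 (-0.36), B2m (-0.30) and H2-D1 (-0.23) at 144 h did not pass the fold threshold, and Cd74 was not called at either time.

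Of the list of 22 class I pathway genes, 8 were lower and 2 higher at 96 h, and 7 lower and 2 higher at 144 h, beside 17.5% and 15.4% of all genes called in either direction. Psmb9 averaged 272 ± 2.81 at 96 h, between 642 ± 47.5 at 88 h and 589 ± 58.2 at 104 h (-1.17), and was lower by 0.98 on the log2 scale at 144 h, while Psmb10 was higher at both times (0.88 and 0.59). The time point after the earlier renewal, 48 h, held the lowest H2-K1 mean of the IL3 course, 7517 ± 368, with 9669 ± 184.05 at 40 h and 11511 ± 1100 at 56 h, and the step from 48 to 56 h was called (0.61). In GCSF-OHT, H2-K1 averaged 12822 ± 683 at 48 h, 15556 ± 725 (n = 2) at 96 h and 19775 ± 467 at 144 h, and Tap1 1936 ± 146, 2026 ± 92.9 (n = 2) and 2208 ± 86.2, and no step between neighbouring time points was called for any member. The GCSF-OHT libraries at 96 h also lay under all libraries of their neighbours, with H2-K1 means of 17802 at 88 h and 20566 at 104 h and Tap1 means of 2278 and 2338. The same held at 120 h, which is not the time point after a renewal. H2-K1 averaged 15904 there, between 21422 (n = 2) at 112 h and 22196 at 128 h. Tap1 averaged 2025, between 2451 (n = 2) and 2635. All libraries at 120 h, in both conditions, carry names with another prefix than the remaining libraries. The dose of OHT differs between the conditions, and renewal, plate and time cannot be told apart.

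**Figure D5:**
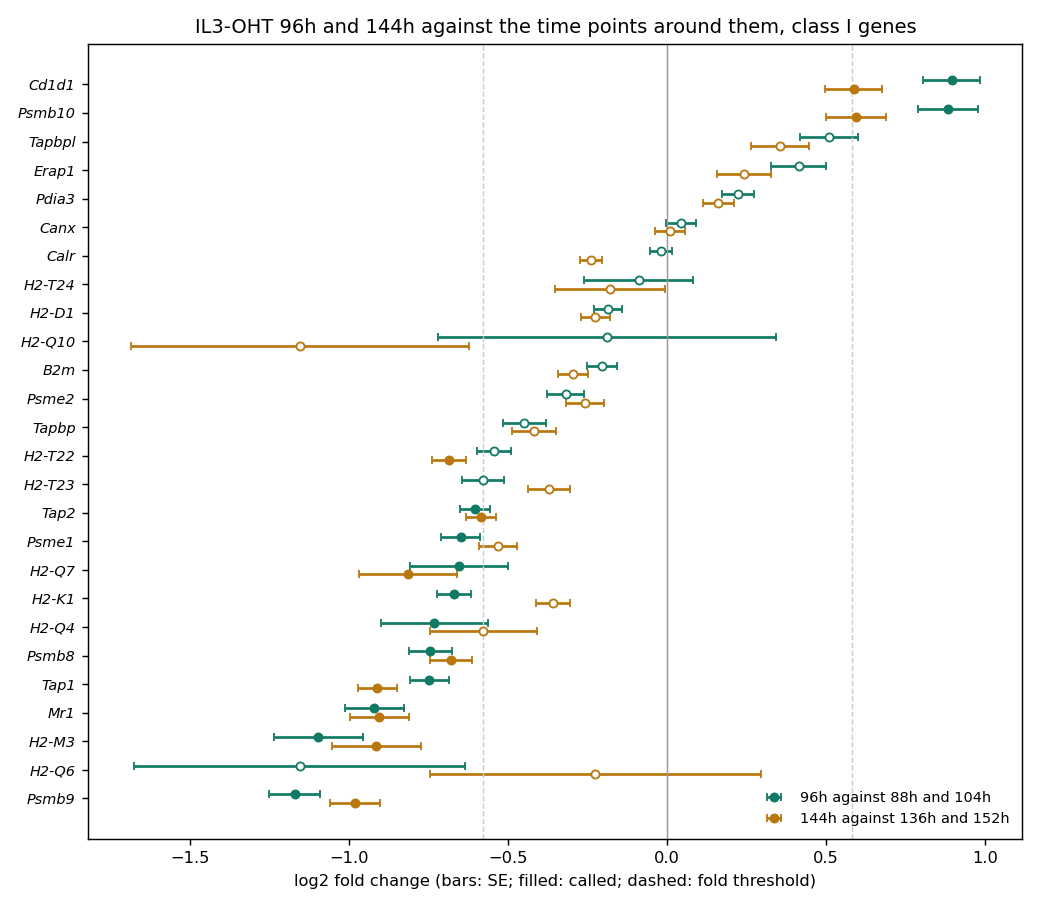
Log2 fold change (horizontal axis) of the 4 class I members and the 22 listed class I pathway genes (vertical axis) in IL3-OHT at 96 h against 88 and 104 h (green) and at 144 h against 136 and 152 h (ochre). Bars are standard errors, filled symbols are called and dashed lines mark the fold threshold of 0.58. Psmb9, H2-M3, Mr1, Tap1 and Psmb8 lie to the left in both, and Cd1d1 and Psmb10 to the right.

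As a description of the courses, the genes whose means over 54 time points were most like those of each member were found by Pearson's r, with points that share plates, time and condition. Tap1 was nearest to Psmb9 (r = 0.959), with which it overlaps in the annotation, and then to Stim1 (0.957) and Tmem94 (0.954). H2-D1 was nearest to Tapbp (0.939), then to H2-K1 (0.871), with which it shares sequence, and to Gcc1 (0.861). H2-K1 was nearest to Rnf167 (0.905), Acox2 (0.889) and Tmub2 (0.878). B2m was nearest to Cox7a2l (0.919), Uqcrh (0.904) and Dnajb6 (0.904). These values pool both courses, between which B2m differs in level, and within a course r between B2m and H2-D1 was 0.886 over 26 time points in IL3 and 0.256 over 28 in GCSF conditions. The genes nearest to Cd74 were Entpd1 (0.908), Lilra6 (0.904) and Gapt (0.894), and those nearest to Ciita were Pecam1 (0.883), Osbpl3 (0.879) and Zfp28 (0.855).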

How the data were processed

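RNA-seq libraries of PUER cells came from single wells, with RNA of 3 wells at most time points. The authors aligned reads with Salmon in selective alignment mode to GRCm38 transcripts and divided gene counts by DESeq2 size factors, and they deposited these normalized counts, a signal per gene and library. How transcripts were brought to genes is not given in the sources used here. Dividing each value by the value of 1 read returned whole reads for 100% of nonzero values (largest relative deviation 9.66e-15). All columns were mapped to samples from the labels.

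The authors tested with DESeq2. Here, since normalized values were deposited, log2(normalized count + 1) was fitted with limma (version 3.58.1, R 4.3.3, 1 mean per group, empirical Bayes with trend) over 17414 genes and 159 libraries in 54 groups. IL3-OHT at 96 and 144 h was left out of this fit and fitted apart, as these libraries stood away from their neighbours. p-values were two-sided and adjusted by Benjamini-Hochberg over all genes tested within each comparison. They measure the spread between wells of a plate. Time points were tested singly and for any change over a course (F test with a fold beyond the threshold at 1 time point or more). edgeR (4.0.16, quasi-likelihood) and DESeq2 (1.42.0) on the recovered reads were alternatives, and edgeR called 5663 genes between GCSF 0h and undifferentiated cells where limma called 5861. Ratios of low counts have exact 95% intervals that cover counting error only. Figures and sequence searches used Python 3.11.15.

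The 9 genes, the pathway and marker lists, and the rule for naming genes were chosen with earlier results of these data known. The rule names all members in every comparison, a fixed set of pathway genes (among them Tap2, Psmb8, Psmb9, Psmb10, Nlrc5, Irf1 and Irf8), the 2 highest and the 2 lowest called genes of each list at the end points, and the 3 genes most like each member. The marker genes named singly (C1qa, C1qb, Itgam, Cd68 and Itgax), and the time points at which pathway genes are given, were chosen after their values were seen. A result that the rule names is not reported here. The marker lists covered dendritic, B, T, neutrophil and macrophage cells. Mast cell and basophil markers summed to 195 to 218 in undifferentiated libraries and eosinophil markers to 4.73 to 9.21.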

Additional observations from a re-analysis of the deposited data

Results flagged for a closer look

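The difference in the change after OHT between GCSF and IL3 conditions was itself tested (limma, GCSF minus IL3, adjusted over all genes). At 168 h the difference was 0.62 for H2-K1, 0.38 for H2-D1 and -0.45 for Tap1 on the log2 scale, and H2-K1 was the 1 member of 6 called, beside 25.7% of all genes. Over the 25 shared time points, a set chosen after the courses had been seen, each of the 6 members was called at 1 time point or more. At a single time point, 2.81% to 27.4% of all genes were called. The share of all genes called at 1 time point or more was not computed, so the count of members has no matching share beside it. The largest called difference was 1.19 for H2-K1 at 12 h, 0.64 for H2-D1 at 12 h, 0.90 for B2m at 12 h, 1.31 for Tap1 at 3 h, -2.58 for Cd74 at 40 h and -3.92 for Ciita at 112 h. The last of these rests on 2 libraries of GCSF-OHT that hold 2 reads of Ciita in all. Cytokine, OHT dose and the GCSF pre-treatment cannot be told apart in these differences, which also include the starting level of each condition. No group had 4 or more libraries, so that no library could be singled out within its group.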

How the results depend on the processing

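Counts of members called kept within 1.5 times the main count in 97 combinations of comparison and alternative and moved further in 17. A filter on a mean of at least 10 normalized counts removed Cd74 and Ciita from the test, and left 1 member in GCSF-OHT at 168 h against undifferentiated cells, 0 in IL3-OHT at 168 h, 0 in GCSF-OHT at 168 h against GCSF 0h, 1 between the conditions over shared time points and 0 over the GCSF course. For GCSF-OHT at 168 h against GCSF 0h, 1 member was called with a pseudocount of 0.5 and with no filter, where Ciita lost its call. For the difference in change at 168 h, 2 members were called with a pseudocount of 5, with the compared groups alone and with DESeq2, where Ciita was added (-1.12, -1.81 and -2.13). With no filter, H2-Ab1 was called over the GCSF course and H2-Eb1 over the IL3 course, both at no more than 3 reads in a library. Leaving out 1 replicate number gave 1 to 2 members in GCSF-OHT at 168 h against undifferentiated cells, 1 to 1 against GCSF 0h, 2 to 3 over shared time points, 0 to 1 for the difference in change, 1 to 3 over the GCSF course, 2 to 3 at 96 h, and in the other comparisons no change. A library was left out only from groups of 3, and groups of 2 kept both. Directions turned for values near 0 or of few reads, namely H2-K1 in GCSF-OHT at 168 h against undifferentiated cells with edgeR (0.035) and, leaving out 1 replicate number, the same value (-0.084 to 0.031), Ciita in GCSF 0h (-0.17 to 0.35), Cd74 at 96 h (-0.087 to 0.30) and Ciita at 144 h (-0.96 to 0.14). The causes were not tested. With the replicate number as a block, the 2, 2, 1, 2, 3, 1, 2, 6, 3 and 1 members called in the 10 comparisons stood as before, and deviations of libraries with the same number correlated at -0.0408 to 0.0307, so that the numbers do not pair the libraries. Few reads limit what can be said of Cd74 and Ciita, and more so of the class II chains.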
